A study of Mus musculus with 6 samples.

Results

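The replication-dependent histone genes are the clustered genes that supply H1, H2A, H2B, H3 and H4 for packing newly copied DNA. They were taken here as every protein-coding gene whose symbol starts with Hist1h, Hist2h, Hist3h or Hist4. This gave 67 of the 54232 gene identifiers counted, of which 6 encode linker histone H1, 18 H2A, 18 H2B, 12 H3 and 13 H4. The Hist1 cluster on chromosome 13 holds 54 of them, the Hist2 cluster on chromosome 3 holds 10, the Hist3 cluster on chromosome 11 holds 2, and Hist4h4 is the 1 gene on chromosome 6. Another 3 identifiers with such a symbol are annotated as pseudogenes and were left out.

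RNA was sequenced from 6 mouse mammary tumor libraries, 3 from NIC+ mice of genotype CdGAP fx/fx (fx1, fx2 and fx3) and 3 from NIC+ mice of genotype CdGAP wt/wt (wt1, wt2 and wt3). Both genotypes carry NIC, a transgene whose MMTV promoter, active in mammary epithelium, expresses an activated form of the receptor ErbB2 (Neu) and the recombinase Cre in the same cells. CdGAP is the protein of Arhgap31, a GTPase-activating protein for Cdc42 and Rac1, and fx marks a copy of its gene that Cre can recombine. Cells of the tumor that do not express the transgene keep an intact copy, and which cells these are was not measured. The labels do not say whether the libraries came from separate animals, nor their age. P-values therefore measure the spread between these samples, which may be technical.

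Most histone genes of these clusters have no introns, and their mRNAs normally end in a conserved stem-loop in place of a poly(A) tail. The stem-loop binding protein SLBP and the U7 small nuclear RNP direct the cut after the stem-loop, and SLBP stays on the mRNA for export and translation. Transcription is driven at S phase by NPAT, a coactivator that acts downstream of cyclin E and Cdk2, and the mRNAs are degraded when DNA synthesis stops. Some of these genes can also be made as polyadenylated mRNAs in differentiated cells, where they do not follow the cell cycle.

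Values are read-pair counts per gene, given as CPM (counts per 1000000 counts in the library, with library sizes scaled by TMM). Library totals lay between 36732137 and 53606276 counts in fx/fx tumors and between 42373196 and 46460750 in wt/wt tumors. A count of 0 allows up to 3 counts, which is at most 0.0803 CPM in the shallowest library and covers counting error only. Arhgap31 measured 155, 44.1 and 115 CPM in fx1, fx2 and fx3, against 664, 432 and 549.5 CPM in wt1, wt2 and wt3, with the lowest level in fx2 (log2 fold change -2.38, SE 0.45, adjusted p = 0.153 by edgeR and 4.67e-05 by DESeq2). Summed over 6 epithelial markers (Epcam, Krt8, Krt18, Krt19, Cdh1 and Cldn3), fx/fx tumors held 3746 to 5084 CPM and wt/wt tumors 3672 to 4428 CPM. The germ-line markers Tnp1, Prm1 and Prm2, genes of cells that use testis histones, were at 0 in all 6 libraries.

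The sequences that define these mRNAs are shown first, because which of them end in a poly(A) tail bears on what a count can hold. The 16-base histone stem-loop, searched with any base at the positions where the sequences printed here differ, was found in an annotated GENCODE M21 transcript of 44 of the 67 genes (65.7%), on the transcribed strand, against 34 of 21884 other protein-coding genes (0.155%). It occurred as 6 different sequences, and an example of each, with the bases around it, is given here from 5′ to 3′ with the stem-loop in capitals. Coordinates are those of the printed bases on GRCm38.
Hist1h1d, chr13:23555783-23555808, plus strand, its stem-loop shared with 26 genes in all: aaacGGCTCTTTTCAGAGCCacccac
Hist1h4d, chr13:23581946-23581971, plus strand, shared by 7 genes: caaaGGCCCTTTTCAGGGCCactacc
Hist1h3f, chr13:23544928-23544953, plus strand, shared by 6 genes: aaacGGCTCTTTTAAGAGCCacctcc
Hist1h4j, chr13:21735433-21735458, plus strand, shared by 2 genes: taaaGGTCCTTTTCAGGACCaccaca
Hist1h4i, chr13:22040960-22040985, minus strand, shared by 2 genes: taaaGGCCCTTTTTAGGGCCaccaca
Hist2h2ac, chr3:96220412-96220437, minus strand, in 1 gene: aaaaGGCTCTTTTTAGAGCCaccaaa
A poly(A) signal, the hexamer AATAAA or its most common variant with ATTAAA, stood in the last 50 bases of a transcript of 17 genes. The stem-loop without a signal was found in 31 genes, both in 13, a signal alone in 4 and neither in 19. A missing motif says only that these letters are not in the annotated transcript. The stem-loop of Hist1h1d is followed by another 4884 annotated bases and that of Hist1h4d by 770, so counts of these genes include any transcript that runs on past the stem-loop.

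Promoters of the clusters carry class-specific elements, shown because genes of several classes had fx1 and fx3 as their highest libraries, as described further on. The 250 bases before the start site are given for 1 gene of each class from RefSeq (GRCm38.p6), 5′ to 3′ on the gene's strand. Capitals mark CCAAT, the site of NF-Y, which reads ATTGG on the other strand. They also mark the octamer ATTTGCAT, the site of Oct-1, and the hexamer GGTCCG, and each was searched on both strands.
Hist1h1d, chr13:23554782-23555031, plus strand: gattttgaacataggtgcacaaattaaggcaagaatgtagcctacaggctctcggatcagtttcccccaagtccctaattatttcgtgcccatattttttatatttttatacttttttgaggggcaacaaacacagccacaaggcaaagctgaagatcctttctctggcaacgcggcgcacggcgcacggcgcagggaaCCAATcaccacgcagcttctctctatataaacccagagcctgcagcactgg
Hist1h2af, chr13:23533625-23533874, plus strand: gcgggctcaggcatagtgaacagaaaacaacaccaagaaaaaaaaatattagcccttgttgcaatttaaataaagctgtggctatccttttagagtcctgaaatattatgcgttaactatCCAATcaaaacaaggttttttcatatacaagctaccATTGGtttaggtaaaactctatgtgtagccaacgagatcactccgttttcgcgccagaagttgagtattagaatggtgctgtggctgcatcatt
Hist1h2be, chr13:23585971-23586220, minus strand: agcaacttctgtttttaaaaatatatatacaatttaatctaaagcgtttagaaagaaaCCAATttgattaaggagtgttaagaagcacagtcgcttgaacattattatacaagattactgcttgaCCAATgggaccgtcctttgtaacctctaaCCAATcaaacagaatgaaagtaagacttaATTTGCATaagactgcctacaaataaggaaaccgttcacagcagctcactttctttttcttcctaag
Hist1h3d, chr13:23575513-23575762, plus strand: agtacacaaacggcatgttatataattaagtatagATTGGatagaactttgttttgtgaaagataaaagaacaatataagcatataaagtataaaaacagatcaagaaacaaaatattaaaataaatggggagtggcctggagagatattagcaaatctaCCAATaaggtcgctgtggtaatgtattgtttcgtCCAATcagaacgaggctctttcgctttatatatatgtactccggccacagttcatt
Hist1h4d, chr13:23581318-23581567, plus strand: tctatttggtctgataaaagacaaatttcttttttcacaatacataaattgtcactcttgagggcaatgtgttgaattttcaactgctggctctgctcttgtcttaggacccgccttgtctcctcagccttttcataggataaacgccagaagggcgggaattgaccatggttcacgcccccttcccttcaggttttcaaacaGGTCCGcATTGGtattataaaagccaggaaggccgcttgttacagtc
RefSeq gave 63 promoters, from 250 bases before to 50 after the start, for 62 of the 67 genes. CCAAT was in 54 of the 63, against 37.4% of the 32851 promoters searched, and in each H1, H2A, H2B and H3 promoter but in only 3 of 12 H4 promoters. The octamer was in 7 of 18 H2A and 7 of 17 H2B promoters and in none of the H1, H3 or H4 promoters, against 1.74% of those searched. GGTCCG, chosen after these promoters had been seen, was in 11 of 12 H4 promoters and in 1 H2B and 1 H3 promoter, against 8.25% of those searched. These matches describe the letters and are not evidence of binding.

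Summed over the 67 genes, histone mRNA was high in fx1 and fx3 and low in fx2, which lay close to the lowest wt/wt library. The sums were 729.7, 273 and 629 CPM in fx1, fx2 and fx3, against 269, 327 and 506 CPM in wt1, wt2 and wt3. From high to low the libraries stood as fx1, fx3, wt3, wt2, fx2 and wt1, and the genotypes overlapped. The means were 544 ± 239.9 CPM in fx/fx and 367 ± 124 CPM in wt/wt tumors (SD, n = 3 each), a 1.48-fold ratio. The difference of mean log2 values was 0.50, less than the spread between libraries of a genotype (pooled SD 0.63 on that scale). In tissue RNA, fewer cells in S phase and less histone mRNA per cell cannot be told apart.

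Linker histone H1 genes summed to 319, 151 and 281 CPM in fx1, fx2 and fx3, against 127, 131 and 258 CPM in wt1, wt2 and wt3. H2B genes summed to 210.3, 74.9 and 196 CPM in fx1, fx2 and fx3, against 76.2, 94.5 and 143 CPM in wt1, wt2 and wt3. Both classes were highest in fx1 and fx3 and next highest in wt3, which lay close to fx3 only in H1. H3 genes summed to 25.0, 4.60 and 16.8 CPM in fx1, fx2 and fx3, against 6.09, 9.62 and 11.4 CPM in wt1, wt2 and wt3. H4 genes summed to 150.2, 20.8 and 105 CPM in fx1, fx2 and fx3, against 36.9, 61.5 and 67.1 CPM in wt1, wt2 and wt3. In H3 and H4 fx2 was the lowest of the 6 libraries while fx1 and fx3 were the highest. The H2A sum behaved otherwise, with wt2 the highest. It was 25.0, 21.2 and 29.6 CPM in fx1, fx2 and fx3, against 22.7, 30.4 and 26.7 CPM in wt1, wt2 and wt3. A single gene, Hist3h2a, made up much of it. That gene had 10.6, 13.5 and 10.7 CPM in fx1, fx2 and fx3, against 14.4, 17.2 and 15.5 CPM in wt1, wt2 and wt3. The order of the H2A sums therefore depends on Hist3h2a and does not describe the class as a whole.

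**Figure D1:**
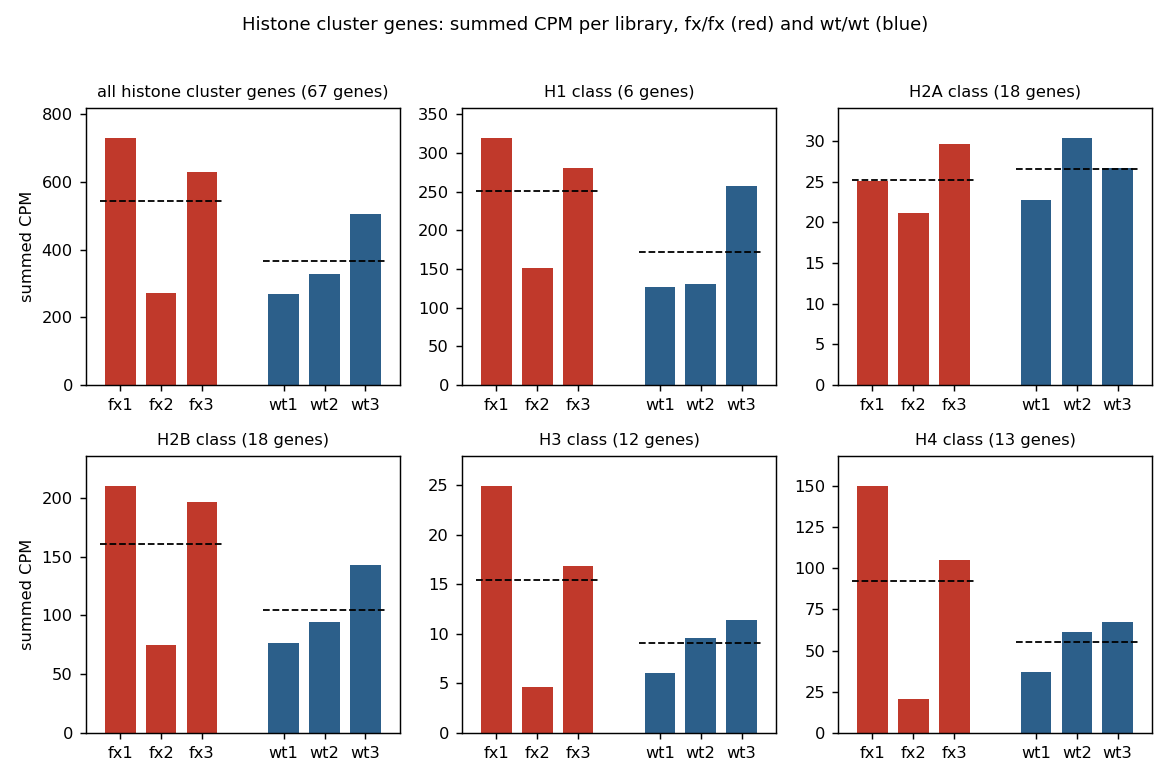
Summed CPM (vertical axes, from 0) of all 67 histone cluster genes and of each class in the 3 fx/fx libraries (red, left) and the 3 wt/wt libraries (blue, right), with dashed lines at the genotype means. The fx1 and fx3 bars are the tallest for all genes together, H1, H2B, H3 and H4 but not for H2A, and fx2 has the lowest H3 sum at 4.60 CPM and the lowest H4 sum at 20.8 CPM.

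The distance between the fx/fx tumors themselves depended on the class. The highest fx/fx sum over the lowest was 7.20 for H4, 5.42 for H3, 2.81 for H2B, 2.11 for H1 and 1.40 for H2A. The H2A sums include Hist3h2a, which among the fx/fx libraries was highest in fx2. Among wt/wt tumors the highest sum over the lowest was 1.82 for H4, 1.87 for H3, 1.88 for H2B, 2.03 for H1 and 1.34 for H2A. As a share of all histone counts, H4 took 20.6%, 7.64% and 16.7% in fx1, fx2 and fx3, against 13.7%, 18.8% and 13.3% in wt1, wt2 and wt3. H2A took 3.43%, 7.76% and 4.71% in fx1, fx2 and fx3, against 8.44%, 9.29% and 5.28% in wt1, wt2 and wt3.

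A small number of genes carried most of the counts. Hist1h1c (histone H1.2) and Hist1h2bc together held 52.8% to 73.1% of histone counts in the fx/fx and 53.3% to 67.5% in the wt/wt libraries. Per kilobase of annotated exon, Hist1h1c averaged 125 CPM over the 6 libraries, Hist1h2bc 69.7, Hist1h4i 55.2 and Hist1h4h 33.5 CPM per kilobase, and the next, Hist1h2bg, 10.5. Without Hist1h1c and Hist1h2bc the sums were 345, 73.5 and 256 CPM in fx1, fx2 and fx3, against 91.8, 152 and 164 CPM in wt1, wt2 and wt3. With that pair removed, fx2 was the lowest of the 6 libraries and fx1 and fx3 were still the highest.

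For single genes the counts were compared with edgeR's quasi-likelihood test over all 16752 genes that passed a filter on low counts, with Benjamini-Hochberg adjustment. Of the 67 histone genes 42 passed the filter: 4 H1, 9 H2A, 12 H2B, 8 H3 and 9 H4 genes. At an adjusted p under 0.05, 0 of the 42 were called in either direction, as were 0 of all genes tested (0.0%). At an unadjusted p under 0.05, 2 of the 42 were higher in fx/fx, against a background of 8.18% of all genes tested, and 0 were lower, against 6.04%. DESeq2 called 1 histone gene, Hist1h1d, higher in fx/fx and 0 lower, against backgrounds of 1.77% and 1.06% of the genes it tested. Those include many genes with few counts, and among the 16752 genes past the filter DESeq2 called 499 higher and 306 lower. A fold change above 0 was found for 37 of the 42, against 49.6% of all genes tested, and the median was 0.67, against -0.0043 over all genes (log2). In 0 of the 42 did all fx/fx libraries lie above all wt/wt libraries, against 9.74% of all genes, and in 1, Hist3h2a, they all lay below, against 9.93%. These counts describe the genes that passed the filter, and the 37 are not independent, since the same libraries were high for most of them.

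High levels in fx1 and fx3 were found in genes of every class, though not in every gene. Of the 42 genes, 27 had their highest CPM in fx1 and 10 in fx3, where 20.1% and 17.9% of all genes tested did. None was highest in fx2 (14.6% of all genes) and none in wt1 (9.86%), 4 were highest in wt2 (21.7%) and 1 in wt3 (15.8%). The lowest level was in fx2 for 16 genes (17.3% of all genes) and in wt1 for 15 (11.4%). Both fx1 and fx3 lay above every wt/wt library for 26 of the 42, made up of 4 of 4 H1, 2 of 9 H2A, 6 of 12 H2B, 6 of 8 H3 and 8 of 9 H4 genes. The library fx2 did so for 0, and fx2 lay below every wt/wt library for 18. The median difference from the wt/wt mean was 1.33, -0.45 and 1.04 (log2) in fx1, fx2 and fx3, and -0.59, 0.51 and 0.17 in wt1, wt2 and wt3.

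**Figure D2:**
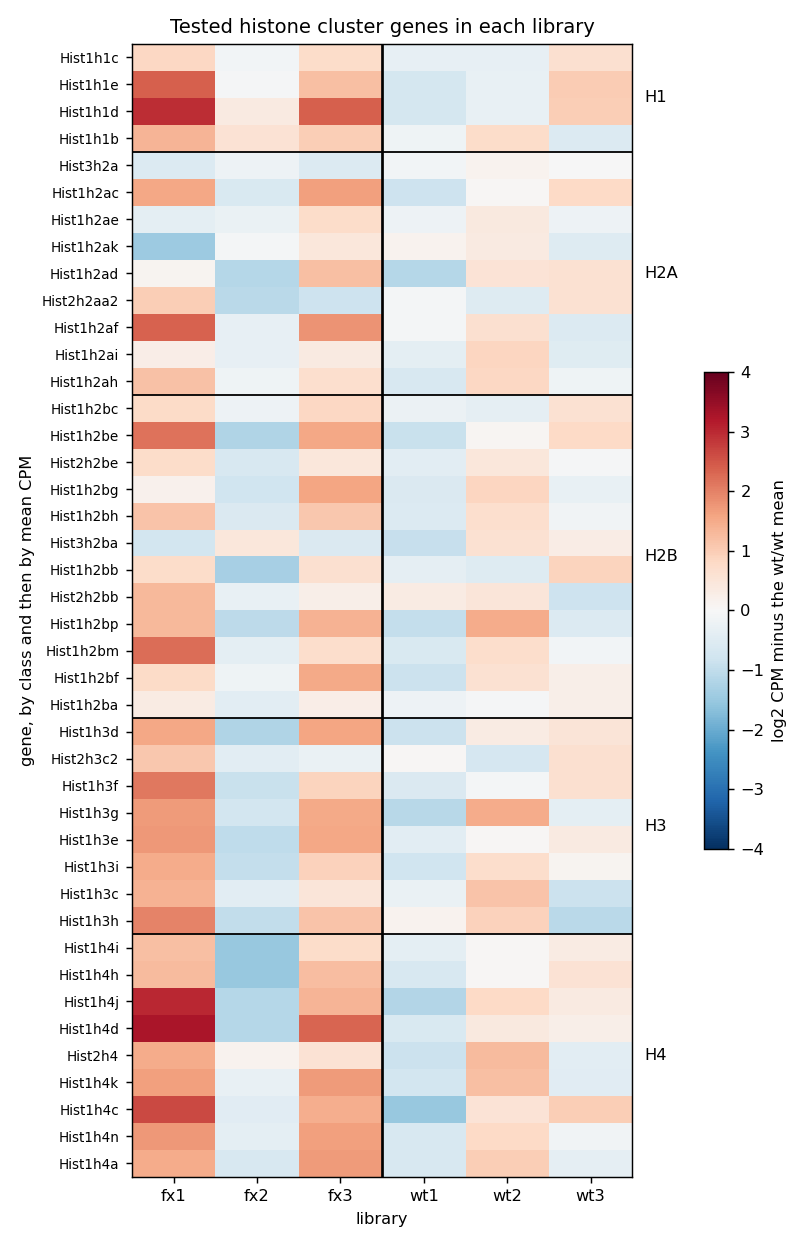
Log2 CPM minus the wt/wt mean (color, red above and blue below 0) for the 42 histone cluster genes that passed the filter (rows, by class and then by mean CPM) in the fx/fx and wt/wt libraries (columns). Columns fx1 and fx3 are red for most H1, H2B, H3 and H4 genes, fx2 is blue for most of them, and H2A rows are mixed.

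Among linker histones, Hist1h1d (histone H1.3; ENSMUSG00000052565, chromosome 13, 23553262 to 23560686, GRCm38) had the smallest p. It measured 17.5, 2.86 and 11.9 CPM in fx1, fx2 and fx3, against 1.37, 1.81 and 4.52 CPM in wt1, wt2 and wt3. Its fx1 and fx3 levels were above all wt/wt levels, while fx2 lay below wt3. The log2 fold change was 2.07 (SE 0.72), with adjusted p = 0.273 by edgeR and 0.0385 by DESeq2. Leaving out any of fx1, fx3, wt1 or wt2 ended the DESeq2 call, with adjusted p values of 0.373, 0.136, 0.231 and 0.197 in that order.

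Hist1h1e (histone H1.4) measured 24.9, 4.55 and 11.0 CPM in fx1, fx2 and fx3, against 2.86, 3.84 and 9.47 CPM in wt1, wt2 and wt3 (log2 fold change 1.32, SE 0.68, edgeR adjusted p = 0.431). Hist1h1b (histone H1.5) measured 0.865, 0.482 and 0.655 CPM in fx1, fx2 and fx3, against 0.266, 0.536 and 0.196 CPM in wt1, wt2 and wt3 (log2 fold change 1.01, SE 0.51, edgeR adjusted p = 0.421). For both, fx1 and fx3 were the 2 highest libraries and fx2 lay within the wt/wt range. Hist1h1c, the most abundant gene of the histone clusters per length, measured 276, 143 and 257 CPM in fx1, fx2 and fx3, against 123, 124 and 243 CPM in wt1, wt2 and wt3 (log2 fold change 0.46, SE 0.35, edgeR adjusted p = 0.606). Here wt3 stood close to fx1 and fx3, and fx2 close to wt1 and wt2. Hist1h1a (histone H1.1) and Hist1h1t, the linker histone of the testis, had at most 9 and 2 counts per library.

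For H4, the core histone that pairs with H3, Hist1h4d (ENSMUSG00000061482, chromosome 13, 23581598 to 23582735) measured 11.8, 0.509 and 6.11 CPM in fx1, fx2 and fx3, against 0.753, 1.56 and 1.40 CPM in wt1, wt2 and wt3. The fx/fx libraries lay on both sides of the wt/wt libraries, fx1 and fx3 above and fx2 below. The log2 fold change was 2.31 (SE 0.94), with adjusted p = 0.327 by edgeR and 0.0714 by DESeq2. The main H4 genes by level also had fx1 and fx3 above and fx2 below every wt/wt library. Hist1h4i measured 74.6, 11.3 and 54.6 CPM in fx1, fx2 and fx3, against 25.1, 33.9 and 41.2 CPM in wt1, wt2 and wt3 (log2 fold change 0.49, SE 0.59, edgeR adjusted p = 0.765). Hist1h4h measured 27.4, 3.93 and 27.0 CPM in fx1, fx2 and fx3, against 7.33, 11.7 and 17.1 CPM in wt1, wt2 and wt3 (log2 fold change 0.69, SE 0.67, edgeR adjusted p = 0.697). Both had their lowest level in fx2 and their highest in fx1. Hist1h4n measured 1.88, 0.401 and 1.77 CPM in fx1, fx2 and fx3, against 0.332, 0.960 and 0.480 CPM in wt1, wt2 and wt3 (log2 fold change 1.20, SE 0.67, edgeR adjusted p = 0.465). The 9 H4 genes that passed the filter all had a fold change above 0, from 0.49 to 2.31 (log2, median 1.05).

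**Figure D3:**
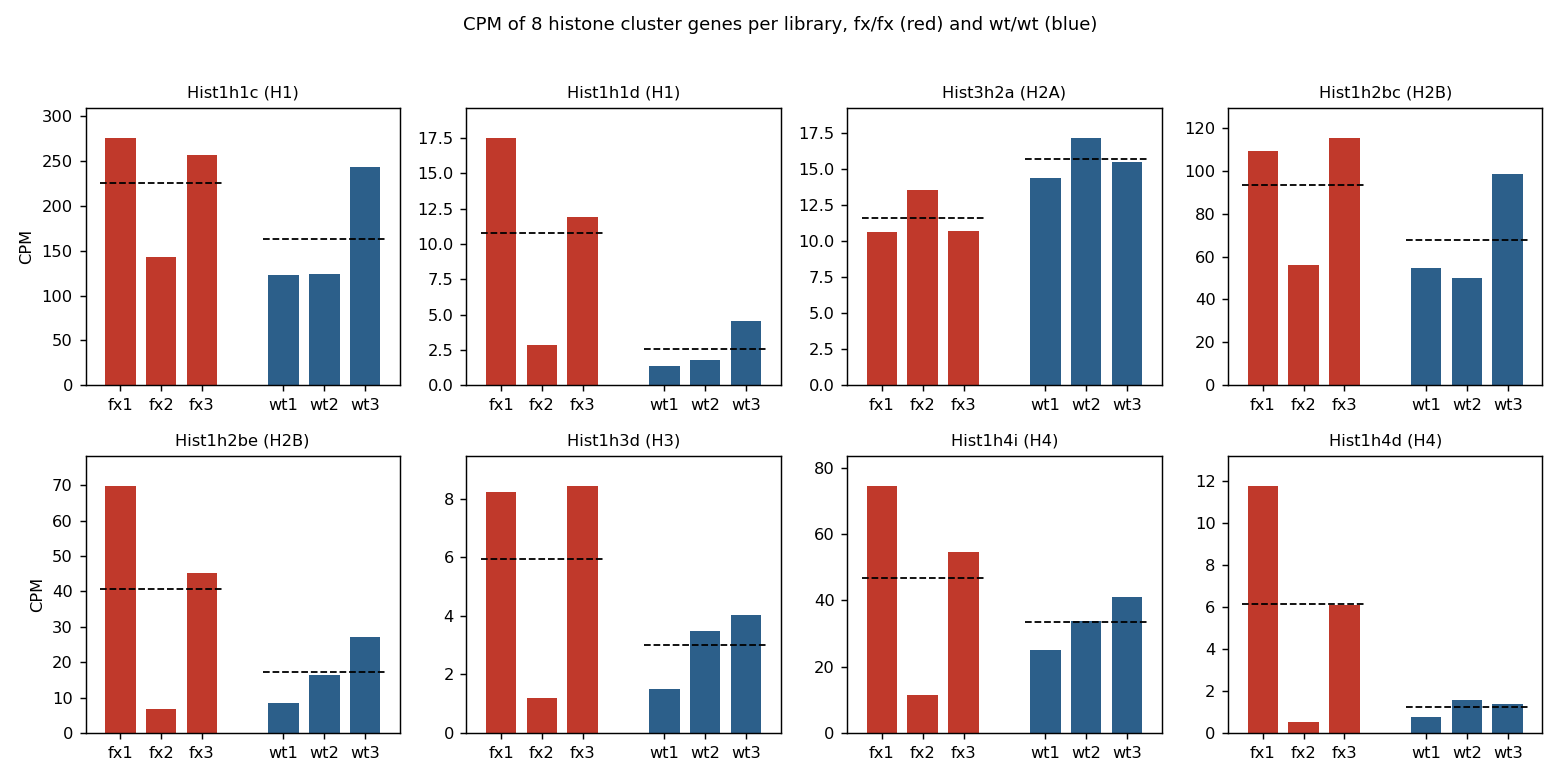
CPM (vertical axes, from 0) of 8 histone cluster genes in the 3 fx/fx libraries (red, left) and the 3 wt/wt libraries (blue, right), with dashed lines at the genotype means. Hist1h1d and Hist1h4d reach 17.5 and 11.8 CPM in fx1, the fx2 bar is the lowest of the 6 for Hist1h2be, Hist1h3d, Hist1h4i and Hist1h4d, and Hist3h2a alone has every fx/fx bar below every wt/wt bar.

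For H3, Hist1h3d measured 8.22, 1.18 and 8.44 CPM in fx1, fx2 and fx3, against 1.51, 3.48 and 4.02 CPM in wt1, wt2 and wt3 (log2 fold change 0.99, SE 0.72, edgeR adjusted p = 0.583). Hist2h3c2 measured 5.98, 2.09 and 2.33 CPM in fx1, fx2 and fx3, against 2.90, 1.74 and 4.47 CPM in wt1, wt2 and wt3 (log2 fold change 0.19, SE 0.54, edgeR adjusted p = 0.909). In Hist1h3d fx1 and fx3 were the highest, whereas in Hist2h3c2 only fx1 was above all wt/wt libraries. The 8 H3 genes that passed the filter had fold changes from 0.19 to 1.20 (log2, median 0.88).

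H2B was led by Hist1h2bc, at 109, 56.0 and 115 CPM in fx1, fx2 and fx3, against 54.7, 49.9 and 98.4 CPM in wt1, wt2 and wt3 (log2 fold change 0.47, SE 0.36, edgeR adjusted p = 0.606). As in Hist1h1c, the values fell into a high set of fx1, fx3 and wt3 and a low set of fx2, wt1 and wt2. Hist1h2be measured 69.8, 6.64 and 45.3 CPM in fx1, fx2 and fx3, against 8.35, 16.4 and 27.1 CPM in wt1, wt2 and wt3 (log2 fold change 1.23, SE 0.80, edgeR adjusted p = 0.535). Its fx2 level was the lowest of the 6 and its fx1 level the highest. The annotated Hist1h2be overlaps Hist1h1e on the same strand, so the counts of both are uncertain. Of the 12 H2B genes that passed the filter 11 had a fold change above 0, with a median of 0.51 (log2).

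H2A genes were split, with 5 of the 9 that passed the filter above 0 and 4 below (median log2 fold change 0.10). Hist1h2af measured 1.28, 0.161 and 0.848 CPM in fx1, fx2 and fx3, against 0.199, 0.357 and 0.131 CPM in wt1, wt2 and wt3 (log2 fold change 1.74, SE 0.76, edgeR adjusted p = 0.356). Hist1h2ac measured 5.25, 1.15 and 5.60 CPM in fx1, fx2 and fx3, against 0.974, 1.83 and 3.14 CPM in wt1, wt2 and wt3 (log2 fold change 1.01, SE 0.67, edgeR adjusted p = 0.540). Both again had fx1 and fx3 above every wt/wt library. Hist1h2ak measured 0.828, 2.19 and 3.25 CPM in fx1, fx2 and fx3, against 2.59, 3.04 and 1.61 CPM in wt1, wt2 and wt3 (log2 fold change -0.21, SE 0.54, edgeR adjusted p = 0.898), with fx1 the lowest library. Hist2h2aa2 and Hist1h2ai had fold changes of -0.06 and -0.01 (log2, edgeR adjusted p = 0.979 and 0.998), and their genotypes overlapped.

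Both Hist3 genes had a fold change below 0. Hist3h2a (ENSMUSG00000078851, chromosome 11, 58954685 to 58956830) measured 10.6, 13.5 and 10.7 CPM in fx1, fx2 and fx3, against 14.4, 17.2 and 15.5 CPM in wt1, wt2 and wt3. Every fx/fx library was below every wt/wt library, with means of 11.6 ± 1.66 and 15.7 ± 1.40 CPM (SD, n = 3 each). The log2 fold change was -0.43 (SE 0.22), with adjusted p = 0.433 by edgeR and 0.406 by DESeq2. Its model overlaps Trim17 on the same strand, so reads of the 2 genes may be mixed. Hist3h2ba measured 0.451, 1.10 and 0.509 CPM in fx1, fx2 and fx3, against 0.399, 1.23 and 0.982 CPM in wt1, wt2 and wt3 (log2 fold change -0.35, SE 0.56, edgeR adjusted p = 0.827). In both Hist3 genes fx2 was the highest fx/fx library. Summed by cluster, Hist1 genes gave 691, 248 and 599.8 CPM in fx1, fx2 and fx3, against 242, 288 and 474 CPM in wt1, wt2 and wt3. Hist2 genes gave 28.1, 10.4 and 17.5 CPM in fx1, fx2 and fx3, against 11.7, 19.4 and 15.7 CPM in wt1, wt2 and wt3, so there only fx1 exceeded every wt/wt library.

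The other 25 genes had at most 80 counts in a library and did not pass the filter. Hist2h2aa1 and Hist2h3c1 were at 0 in all 6 libraries. Hist4h4 had 1, 2 and 1 counts in fx1, fx2 and fx3, against 12, 22 and 6 counts in wt1, wt2 and wt3, so its genotypes did not overlap, and DESeq2 gave adjusted p = 0.0728. It is singled out after its values were seen. Genotypes also did not overlap for Hist2h2ac (lower in fx/fx) and for Hist1h2ab and Hist1h1a (higher in fx/fx), and Hist1h1a had the same 4 counts in fx2 and wt2, so that it was apart by library size alone. Among all 12788 genes below the filter with a count, 3.61% did not overlap with fx/fx lower and 4.53% with fx/fx higher. Low counts here do not show that a gene is silent, because the file headers show no option for reads that align to several places, and near-identical histone genes lose such reads. Of the 67 genes 34 had fewer than 50% of their 50-base windows to themselves among GENCODE M21 transcripts, 19 of them among the 25 below the filter, and 5 genes had none. The annotated models of 7 genes overlap another gene on the same strand.

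Restricting the sum to the 33 genes with at least 50% unique windows gave 702, 264 and 607 CPM in fx1, fx2 and fx3, against 259, 310.1 and 492 CPM in wt1, wt2 and wt3. The other 34 gave 27.3, 9.15 and 21.5 CPM in fx1, fx2 and fx3, against 10.7, 16.6 and 13.6 CPM in wt1, wt2 and wt3. In both sets fx1 and fx3 were the highest, while the order of the other 4 libraries differed. Genes with a stem-loop and no poly(A) signal summed to 105, 20.3 and 78.5 CPM in fx1, fx2 and fx3, against 19.4, 35.3 and 42.0 CPM in wt1, wt2 and wt3 (difference of mean log2 values 0.85, pooled SD 0.98). Genes with a poly(A) signal summed to 503, 191 and 423 CPM in fx1, fx2 and fx3, against 189.5, 231 and 361 CPM in wt1, wt2 and wt3 (difference 0.45, pooled SD 0.63). Much of this sum was Hist1h1c, which has both motifs, at 276, 143 and 257 CPM in fx1, fx2 and fx3. In wt1, wt2 and wt3 that gene held 123, 124 and 243 CPM. Both sets had fx1 and fx3 highest, and neither difference exceeded the spread between libraries.

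The comparison of the genotypes depended on fx2. Without it, 47 histone genes passed the filter, their median log2 fold change was 1.18, and 42 had a fold change above 0. Among the 42 genes that passed with all 6 libraries, fx2 lay below both fx1 and fx3 for 38. For those genes a rise of the fold change without fx2 was fixed in advance and is no support for a genotype difference. At an unadjusted p under 0.05, 17 were higher in fx/fx, against 8.96% of all genes tested without fx2, and 1, Hist4h4, was lower, against 8.79%. Hist1h2bj, Hist1h3b, Hist1h4m, Hist2h2ac and Hist4h4 passed the filter only without fx2, each through the genotype where it is high. Hist1h3b and Hist1h4m are among the 17, so these tallies partly hold genes let in by their own difference. At an edgeR adjusted p under 0.05, 0 histone genes were called, against 0.0116% of all genes. DESeq2 without fx2 called 8 of the 67 histone genes higher in fx/fx, against 2.57% of the genes it tested: Hist1h1d, Hist1h2af, Hist1h2be, Hist1h3b, Hist1h3d, Hist1h3e, Hist1h4d and Hist1h4j. Among the 16752 genes that passed the filter with all 6 libraries, it called 693 higher without fx2. Leaving out any other library gave 0 or 1 histone genes called by DESeq2. Leaving out fx1 took the difference of mean log2 sums to 0.22 for all 67 genes and to -0.19 for H4, while leaving out fx2 took them to 0.93 and 1.23. Without fx3, wt1, wt2 or wt3 the difference for all 67 genes was 0.33, 0.30, 0.44 or 0.75 in that order, against 0.50 with all 6 libraries. No label sets fx2 apart from fx1 and fx3, but measured values do. Arhgap31 was at 44.1 CPM in fx2, against 155 and 115 CPM in fx1 and fx3. Fibroblast and adipocyte marker medians, given below, were highest in fx2. The part of these differences in the histone values was not tested.

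**Figure D4:**
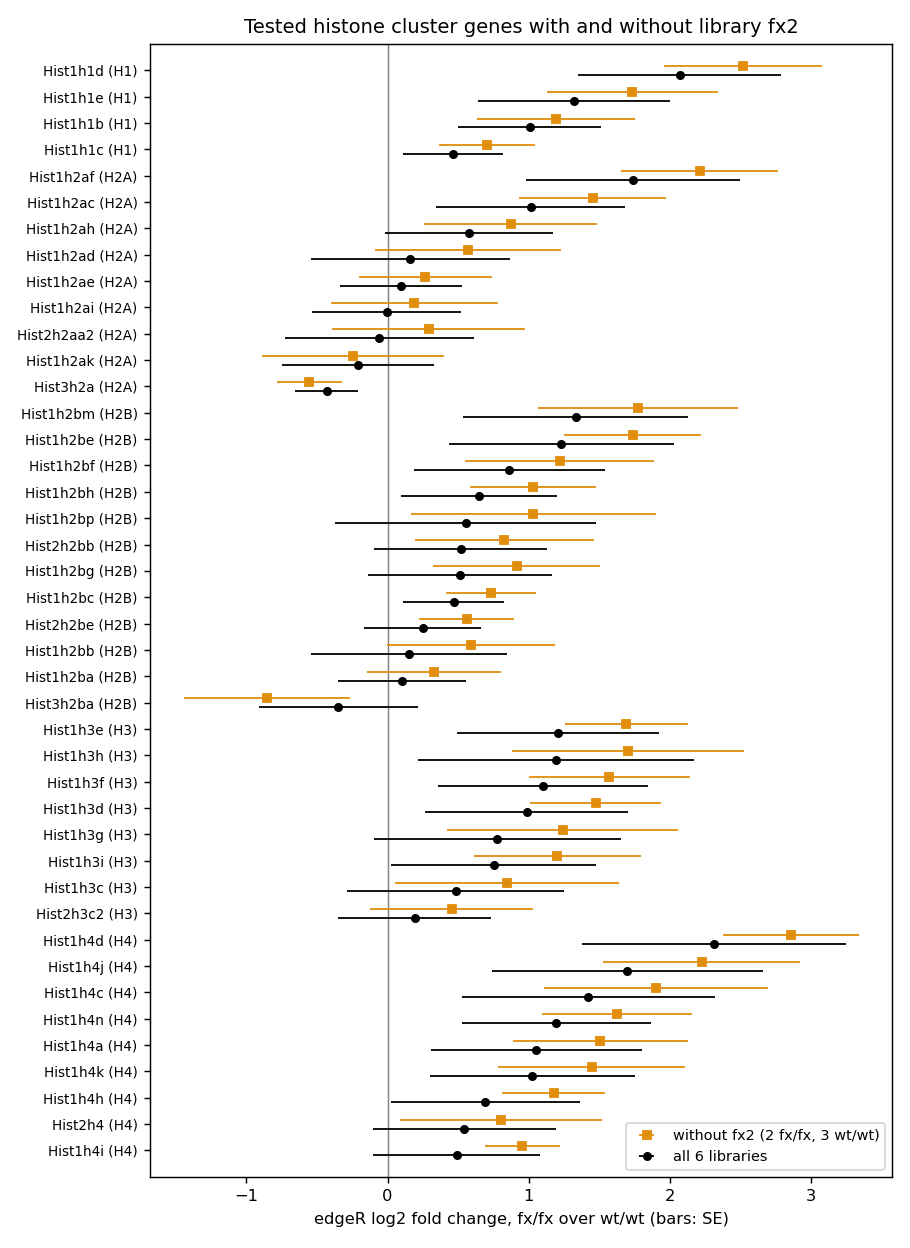
edgeR log2 fold change of fx/fx over wt/wt (horizontal axis, bars are SE) for the 42 histone cluster genes that passed the filter with all 6 libraries, from all 6 libraries (black circles) and without fx2 (orange squares). Without fx2 most points lie further right, as Hist1h4d at 2.85 against 2.31 with all libraries, while Hist3h2a and Hist3h2ba stay left of 0. The shift to the right follows from leaving out the library that was the lowest of fx/fx for most of these genes.

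Whether the library differences followed RNAs without a poly(A) tail was examined next, since histone mRNA that ends at the stem-loop is itself such an RNA. The sources used here do not give how RNA was selected. A list of 37 such identifiers (RNase P and MRP RNA, 7SK, 7SL, telomerase RNA, Y, vault, spliceosomal, U3 and Cajal body RNAs) summed to 2.67, 3.88 and 4.51 CPM in fx1, fx2 and fx3, against 2.83, 7.74 and 3.49 CPM in wt1, wt2 and wt3. All 2943 annotated snRNA, snoRNA and scaRNA genes together gave 20.0, 22.6 and 25.9 CPM in fx1, fx2 and fx3, against 19.5, 47.3 and 19.0 CPM in wt1, wt2 and wt3. The highest library was wt2 in both, and fx1, the highest for histones, was the lowest for the list of 37 and above only wt1 and wt3 for the annotated genes. These are low values, and only 3 of the 37 passed the filter.

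Rn7sk, the RNA that holds the elongation factor P-TEFb inactive, had 0.828, 2.60 and 2.04 CPM in fx1, fx2 and fx3, against 1.15, 2.23 and 1.51 CPM in wt1, wt2 and wt3 (log2 fold change 0.15, SE 0.51, edgeR adjusted p = 0.923). Scarna2 had 0.395, 0.401 and 1.02 CPM in fx1, fx2 and fx3, against 1.02, 2.43 and 1.07 CPM in wt1, wt2 and wt3 (log2 fold change -1.32, SE 0.57, edgeR adjusted p = 0.356). Terc, the telomerase RNA, had 0.809, 0.241 and 0.436 CPM in fx1, fx2 and fx3, against 0.310, 0.982 and 0.306 CPM in wt1, wt2 and wt3 (log2 fold change -0.09, SE 0.65, edgeR adjusted p = 0.966). Rn7sk was lowest in fx1, Scarna2 had nearly the same level in fx3 and wt1 (42 and 46 counts), and Terc shared the histone order within fx/fx but had its maximum in wt2. Rmrp was at 0 in all libraries, and Rpph1 had at most 0.121 CPM in any. The U3 RNAs of the list were also at 0. Rmrp and each of these U3 RNAs are annotated under identifiers that overlap on the same strand. Their reads may not have been assigned to any identifier, so a 0 here does not show that the RNA was absent. Malat1, a nuclear RNA whose end is cut by RNase P, had 237, 238 and 98.5 CPM in fx1, fx2 and fx3, against 156, 215 and 98.7 CPM in wt1, wt2 and wt3. Neat1, with an isoform ended the same way, had 254, 212 and 278 CPM in fx1, fx2 and fx3, against 184, 817 and 204 CPM in wt1, wt2 and wt3. Malat1 was lowest in fx3, a library high in histone mRNA, and wt2, highest in Neat1, was not. No single order of libraries was common to these RNAs and the histone genes.

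Genes of DNA synthesis did not share the histone order either. The 30 genes of S phase and replication summed to 1333, 2252 and 3054 CPM in fx1, fx2 and fx3, against 2442, 2775 and 1870.4 CPM in wt1, wt2 and wt3. The library with the highest histone sum, fx1, was thus the lowest in this list, and it held the lowest level of 28 of its 30 genes, against 21.5% of all genes tested. Mki67, a marker of cycling cells, measured 163, 281 and 373 CPM in fx1, fx2 and fx3, against 382, 452 and 187 CPM in wt1, wt2 and wt3 (log2 fold change -0.32, SE 0.40, edgeR adjusted p = 0.773). Mcm2, a subunit of the replicative helicase, measured 42.8, 71.3 and 101 CPM in fx1, fx2 and fx3, against 74.8, 59.9 and 65.3 CPM in wt1, wt2 and wt3 (log2 fold change 0.10, SE 0.30, edgeR adjusted p = 0.915). Both were lowest in fx1, and neither passed the test. Ribosomal protein genes were also lowest in fx1, for 77 of the 78 that were tested, and the part of this in the histone values was not tested.

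Of the 30 S phase genes 0 were called by edgeR or DESeq2 in either direction with all 6 libraries. Without fx2, DESeq2 called 1 of them, lower, against 3.04% of the genes it tested. At an unadjusted p under 0.05, 1 was higher, against 8.18% of all genes tested, and 0 were lower, against 6.04%. The higher gene was Ccne1, the cyclin E1 that with Cdk2 activates NPAT. It measured 9.31, 10.3 and 9.24 CPM in fx1, fx2 and fx3, against 5.43, 3.88 and 6.63 CPM in wt1, wt2 and wt3 (log2 fold change 0.86, SE 0.29, edgeR adjusted p = 0.268). The genotypes did not overlap, with fx/fx higher, as for 9.74% of all genes tested, and fx2 was as high as the other fx/fx libraries. Rpa2, a subunit of the single-strand binding protein RPA, measured 18.4, 34.3 and 26.1 CPM in fx1, fx2 and fx3, against 37.4, 44.9 and 36.1 CPM in wt1, wt2 and wt3 (log2 fold change -0.59, SE 0.25, edgeR adjusted p = 0.353). Fen1, the flap endonuclease of lagging-strand synthesis, had a log2 fold change of -0.36 (SE 0.25, edgeR adjusted p = 0.552).

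Of 27 genes that transcribe, cut or degrade histone mRNA, 0 were called by edgeR or DESeq2 with all 6 libraries, and the median log2 fold change was -0.06. Without fx2, DESeq2 called 3 of them, all lower, against 3.04% of the genes it tested. At an unadjusted p under 0.05, 1 was higher, against 8.18% of all genes tested, and 2 were lower, against 6.04%. The 1 higher gene was Npat, at 32.1, 27.5 and 29.3 CPM in fx1, fx2 and fx3, against 21.4, 20.2 and 21.5 CPM in wt1, wt2 and wt3 (log2 fold change 0.49, SE 0.17, edgeR adjusted p = 0.269). All fx/fx libraries were above all wt/wt libraries, including fx2, as for 9.74% of all genes tested. Lsm10, a protein of the U7 small nuclear RNP, measured 8.58, 10.6 and 8.02 CPM in fx1, fx2 and fx3, against 14.3, 16.4 and 14.1 CPM in wt1, wt2 and wt3 (log2 fold change -0.72, SE 0.23, edgeR adjusted p = 0.249). Nfyc, a subunit of NF-Y, measured 31.9, 44.8 and 31.2 CPM in fx1, fx2 and fx3, against 52.7, 47.0 and 64.1 CPM in wt1, wt2 and wt3 (log2 fold change -0.60, SE 0.22, edgeR adjusted p = 0.284). For both, the highest fx/fx value lay below the lowest wt/wt value, as for 9.93% of all genes tested, without passing the test. Lsm10 and Nfyc lie on chromosome 4, starting at bases 126096623 and 120757438. Rpa2, given above, and the chaperone gene Rbbp4, given below, start at bases 132768332 and 129307100 of the same chromosome. The part of this shared location in their values was not tested. Slbp itself measured 26.4, 28.5 and 37.9 CPM in fx1, fx2 and fx3, against 31.8, 43.0 and 28.0 CPM in wt1, wt2 and wt3 (log2 fold change -0.15, SE 0.24, edgeR adjusted p = 0.825), with the genotypes overlapping.

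Replacement histones are also made outside S phase, mostly from polyadenylated mRNAs. The 11 genes summed to 1531, 1877 and 2258 CPM in fx1, fx2 and fx3, against 1885, 1889 and 1862 CPM in wt1, wt2 and wt3. Their lowest library was fx1, the highest for the clustered genes. H2afz (histone H2A.Z) measured 75.3, 109 and 159 CPM in fx1, fx2 and fx3, against 153, 159 and 139 CPM in wt1, wt2 and wt3 (log2 fold change -0.40, SE 0.27, edgeR adjusted p = 0.554). H3f3b (histone H3.3) measured 491, 623 and 668 CPM in fx1, fx2 and fx3, against 698, 668 and 583 CPM in wt1, wt2 and wt3 (log2 fold change -0.13, SE 0.21, edgeR adjusted p = 0.828). H1f0, the linker histone of resting cells, measured 458, 576 and 596 CPM in fx1, fx2 and fx3, against 369.9, 365 and 497 CPM in wt1, wt2 and wt3 (log2 fold change 0.40, SE 0.22, edgeR adjusted p = 0.451). None of the 11 was called by edgeR or DESeq2. At an unadjusted p under 0.05, 0 passed, where 8.18% of all genes tested were higher and 6.04% lower. H2afj and Cenpa, the centromeric H3, had log2 fold changes of -0.35 and -0.61 (edgeR adjusted p = 0.455 and 0.539).

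Histone chaperones, the proteins that carry histones to DNA, summed to 941, 1298 and 1259 CPM in fx1, fx2 and fx3, against 1252, 1234 and 1349 CPM in wt1, wt2 and wt3. Of 14 genes 0 were called by edgeR or DESeq2 with all 6 libraries. Without fx2, DESeq2 called 2 of them, both lower, against 3.04% of the genes it tested. At an unadjusted p under 0.05, 0 passed, where 8.18% of all genes tested were higher and 6.04% lower. Rbbp4, a subunit of the chaperone CAF-1, had a log2 fold change of -0.53 (SE 0.26, edgeR adjusted p = 0.406), Nap1l1, an H2A and H2B chaperone, -0.57 (SE 0.31, adjusted p = 0.447), and Ipo4, the importin for H3 and H4, 0.39 (SE 0.20, adjusted p = 0.429). The chaperone sum was lowest in fx1.

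**Figure D5:**
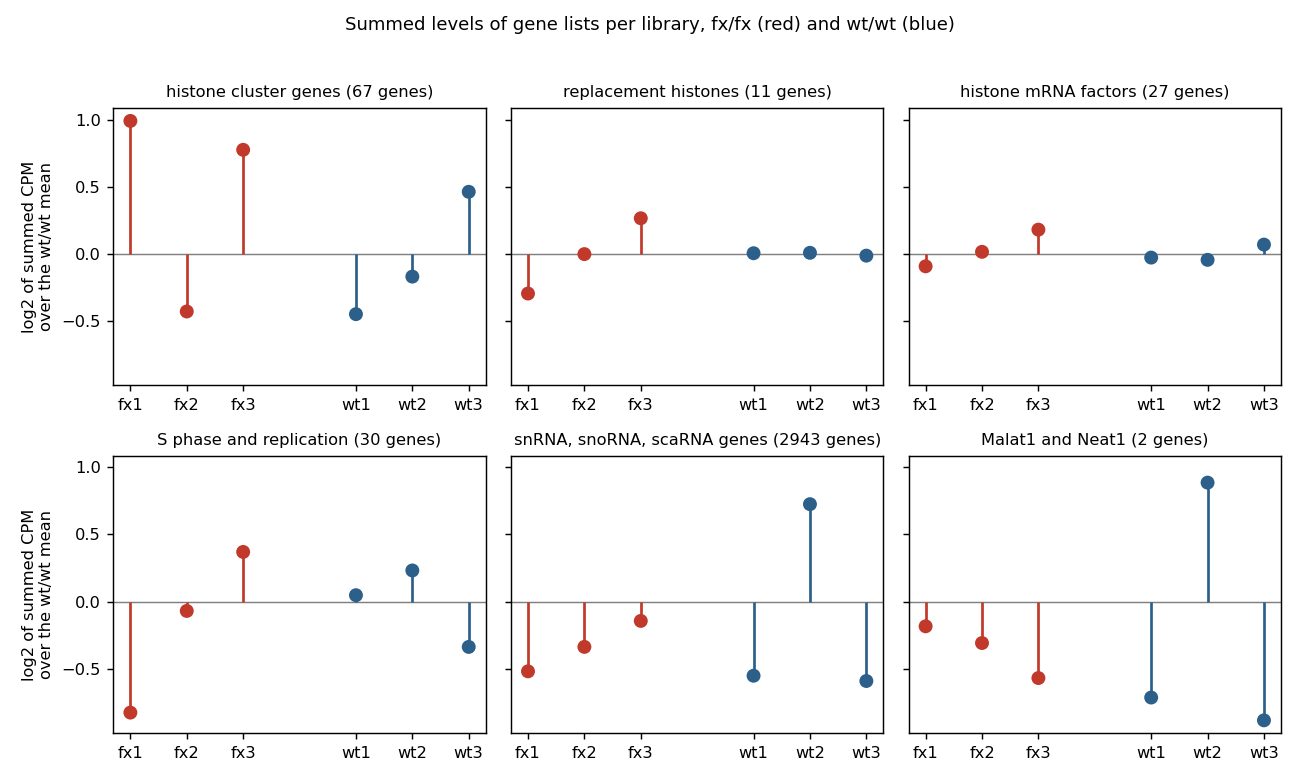
Log2 of each library's summed CPM over the wt/wt mean (vertical axis) for the histone cluster genes and 5 other gene lists in the fx/fx (red, left) and wt/wt (blue, right) libraries. The histone genes are highest in fx1 and fx3, the S phase genes lowest in fx1, and the snRNA, snoRNA and scaRNA genes and Malat1 with Neat1 highest in wt2.

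Genes that resemble or adjoin the histone genes were compared in the same fit. Other protein-coding genes with 1 exon had a median log2 fold change of 0.03 (301 tested), those with a longest transcript under 1000 bases -0.14 (549 tested), and those of GC content in the highest of 4 equal bands -0.0032 (3454 tested), against 0.67 for the 42 histone genes. The 30 other genes tested within 2 Mb of the Hist1 genes had a median of 0.06, and 18 of them were above 0. The histone genes also spread more between libraries of a genotype than genes in general, with a median SD of 1.18 in fx/fx and 0.75 in wt/wt tumors, against 0.37 and 0.29 over all genes tested (log2 CPM). Spread depends on level. Among 4172 other genes with a mean CPM from 0.494 to 5.86, the middle of the histone range, the medians were 0.53 and 0.45.

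Markers of other cells of the tumor also differed between the genotypes. Fibroblast markers (Col1a1, Col1a2, Dcn, Lum and Pdgfra) summed to 473 to 911 CPM in fx/fx, against 175 to 333 CPM in wt/wt tumors. DESeq2 called 4 of the 5 higher, against 1.77% of all genes it tested. Erythroid markers summed to 534 to 627 CPM in fx/fx, against 118 to 296 CPM in wt/wt tumors, with 3 of 4 called higher by DESeq2. Adipocyte markers summed to 45.6 to 145 CPM in fx/fx, against 15.1 to 35.6 CPM in wt/wt tumors, with 1 of 4 called higher by DESeq2. Endothelial markers summed to 87.1 to 169 CPM in fx/fx, against 74.7 to 96.5 CPM in wt/wt tumors, and leukocyte markers to 21.5 to 59.4 CPM in fx/fx, against 32.5 to 50.2 CPM in wt/wt tumors, with 0 called by DESeq2 in either list. The median difference from the wt/wt mean was 1.29, 2.00 and 1.02 (log2) for fibroblast and 1.91, 4.10 and 2.21 for adipocyte markers in fx1, fx2 and fx3. In wt1, wt2 and wt3 it was 0.11, 0.25 and -0.37 for fibroblast and 1.96, -1.10 and -0.59 for adipocyte markers. The adipocyte median of wt1 was thus above that of fx1. Both medians were thus highest in fx2, where the H3 and H4 genes were lowest, and their part in the histone values was not tested.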

How the data were processed

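The deposited values were raw read-pair counts per gene in 6 files, made by the authors with featureCounts 1.6.0 on the Ensembl release 93 annotation of GRCm38, per the file headers, with strand option 2 and chimeric or half-aligned pairs left out. STAR 2.5.1b, FastQC 0.11.5, DESeq2 1.12.3 and another featureCounts version, 1.4.6, appear in the submitters' processing notes. The headers show no option for reads with several alignments. Each library was placed by its title.

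GENCODE M21 gave symbol and type for 54165 of 54232 identifiers. Counts were tested with edgeR 4.0.16 in R 4.3.3 (filterByExpr, TMM, quasi-likelihood test with robust=TRUE, 2-sided, Benjamini-Hochberg over all genes, threshold 0.05), and with DESeq2 1.42.0 as an alternative. Steps were tested on simulated data. Log2 CPM used a prior count of 2, and sums were described by mean, SD and pooled SD without a test. Alternatives were other scalings, no filter, a replicate block and each library left out.

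The members, lists and tests were chosen with earlier results of these data known. Named genes were the 2 most abundant of each class, the 6 smallest p in each direction, any called by DESeq2, a set of fixed genes and up to 3 per list. Hist4h4 and the genes that DESeq2 called only without fx2 were added after their values were seen.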

Additional observations from a re-analysis of the deposited data

How the results depend on the processing

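edgeR called 0 genes of the whole table with TMM, with DESeq2 size factors, with library totals and with the replicate block, 38 without the filter on low counts and 0 to 2 with a library left out. DESeq2 called 833 genes. In an alternative chosen after seeing the data it called 508, 1626 and 856 without fx1, fx2 and fx3, and 412, 565 and 547 without wt1, wt2 and wt3. Histone genes called higher in fx/fx were 0 in every edgeR setting run, 1 by DESeq2 and 0 to 8 by DESeq2 with a library left out (8 without fx2, 1 without wt3). Histone genes called lower were 0 in each. No pairing by replicate number was seen: the correlation of deviations from the genotype means was -0.08, -0.09 and 0.06 for numbers 1, 2 and 3. With 3 libraries per genotype these correlations cannot show that the libraries were unpaired. With the replicate block the difference of mean log2 sums over the 67 genes was 0.50, the same as without it by construction, edgeR called 0 histone genes, and Hist1h2ai and Terc moved to 0.13 and 0.012. Hist1h2ai was 0.00013 without the filter. The difference of mean log2 sums with a library left out ran from 0.22 to 0.93 for all 67 genes, 0.34 to 0.89 for H1, -0.20 to 0.04 for H2A, 0.26 to 1.01 for H2B, 0.01 to 1.23 for H3, -0.19 to 1.23 for H4 and -0.53 to 0.20 for RNAs without a poly(A) tail. Of 714 alternative fold changes of 42 named genes, 677 kept their direction and 37 did not. With a library left out, edgeR fold changes (log2) that turned ran from -0.27 to 0.62 for Hist1h2ai, -0.67 to 0.16 for Hist1h2ak, -0.036 to 0.95 for Hist1h4i, -1.12 to 0.32 for Hist2h2aa2, -0.47 to 0.57 for Hist2h3c2, -0.21 to 0.35 for Mcm2, -1.04 to 0.35 for Neat1, -0.19 to 0.50 for Rn7sk, -0.31 to 0.043 for Slbp and -0.66 to 0.69 for Terc. DESeq2 fold changes that turned with a library left out were 0.19 and 0.61 for Hist1h2ai, 0.16 for Hist1h2ak, -0.038 for Hist1h4i, 0.29, 0.25 and 0.32 for Hist2h2aa2, -0.47 and -0.10 for Hist2h3c2, -0.22 for Mcm2, 0.33 for Neat1, -0.20 and -0.038 for Rn7sk, 0.024 for Slbp, and 0.24, 0.0093 and 0.68 for Terc. The cause was not tested. The 3 libraries per genotype and the low counts of near-identical histone genes limit what can be detected.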
